A study of Mus musculus with 12 samples.

Results

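Genes widely used to mark macrophages were followed through mouse adipocyte cultures grown from inguinal fat precursors. They are Cd68, Lyz2, C1qa, C1qb, C1qc, Fcer1g, Csf1r, Cd53, Itgam and Mrc1, 10 of the 22180 genes measured. The list was written by name, and each gene was represented by the probe set that maps to its symbol alone. Each of the 10 had 1 such probe set. All 10 were measured and none was removed by a filter.

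The data are 12 Affymetrix expression arrays in 4 groups of 3. Every culture carried the genotype R26Cre/Prdm16floxEx9, which names a Cre recombinase driven from Rosa26 together with a loxP-flanked exon in Prdm16, a regulator of the thermogenic fat program. Growing precursors of inguinal adipose tissue received ethanol, the vehicle, or 1 uM 4-hydroxytamoxifen, a ligand that switches on inducible forms of Cre, for 3 days. All were then differentiated with isobutylmethylxanthine, indomethacin, dexamethasone, insulin and T3, either without or with 1 uM rosiglitazone, a drug that activates the fat cell receptor PPARgamma. The groups are called EtOH (ethanol, no rosiglitazone), 4OHT (4-hydroxytamoxifen, no rosiglitazone), EtOH_Rosi and 4OHT_Rosi, and were told apart by the array titles. There was no group without Cre or without the floxed allele, so 4-hydroxytamoxifen itself and excision of the exon cannot be told apart. The labels do not say whether the 3 arrays of a group came from separate cultures, so the p-values measure the spread between arrays, which may be technical.

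Macrophages live among the fat cells and precursors of adipose tissue, and precursors isolated from it can carry some of them into culture. They take up debris and antibody-coated particles through scavenger and Fc receptors, digest them in lysosomes, and are a main source of C1q, the protein that starts the classical complement cascade. Their survival depends on signalling through the CSF1 receptor. In RNA from a whole culture, fewer macrophages and less RNA of a gene per macrophage cannot be told apart.

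Array medians lay between 5.97 and 6.05 on the deposited log2 scale, and arrays of a group correlated at 0.996 to 0.998 over all genes. One array, 4OHT_Rosi 3, stood apart on the third principal component, with a score 1.79 times the next largest. The Prdm16 probe set read 6.55, 6.49 and 6.84 in EtOH, 6.33, 6.45 and 6.59 in 4OHT, 7.20, 7.46 and 7.44 in EtOH_Rosi and 6.63, 6.70 and 6.63 in 4OHT_Rosi. It was lower after 4-hydroxytamoxifen with rosiglitazone (-0.71 ± 0.10 SE, adjusted p = 0.000646) and not called without it (-0.17 ± 0.10 SE, adjusted p = 0.455), and the sources used here do not say whether it covers that exon.

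As a gauge of background, the 95th percentile of the mean level of 1394 olfactory and vomeronasal receptor genes, which these cells are not known to use, was 6.30. All 10 macrophage markers had means above it. Measured from each gene's lowest array, Lyz2 had the widest room, 4.96 above the gauge, and Itgam the narrowest, 0.34. The lowest single value was 6.64, for Itgam, and the highest 11.95, for Lyz2. Probe sets differ in brightness, so these distances say how far each gene can be followed downwards and do not rank the genes by amount of RNA.

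The markers Cd68, Lyz2, C1qb, Fcer1g, Cd53 and Mrc1 were lower with rosiglitazone after both pretreatments, and the 150 bases before their RefSeq start sites are shown because these genes moved together. Of the 10 genes, 8 matched the RefSeq promoter table (build GRCm38.p6), and C1qa and Csf1r did not. Capitals mark matches on either strand to GAGGAA, the core recognised by PU.1, the transcription factor of the myeloid lineage, or to TGANTCA, the AP-1 motif. The windows are chr11:69666171-69666320 (minus strand) for Cd68, chr10:117282273-117282422 (minus strand) for Lyz2, chr4:136886201-136886350 (minus strand) for C1qb, chr1:171234350-171234499 (minus strand) for Fcer1g, chr3:106790150-106790299 (minus strand) for Cd53 and chr2:14229264-14229413 (plus strand) for Mrc1.
Cd68: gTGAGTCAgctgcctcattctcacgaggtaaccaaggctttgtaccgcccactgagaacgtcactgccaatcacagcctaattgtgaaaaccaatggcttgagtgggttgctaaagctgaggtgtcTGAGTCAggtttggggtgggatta
Lyz2: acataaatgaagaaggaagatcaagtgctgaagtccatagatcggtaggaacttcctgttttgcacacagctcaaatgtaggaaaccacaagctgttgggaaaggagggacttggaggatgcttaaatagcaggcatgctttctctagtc
C1qb: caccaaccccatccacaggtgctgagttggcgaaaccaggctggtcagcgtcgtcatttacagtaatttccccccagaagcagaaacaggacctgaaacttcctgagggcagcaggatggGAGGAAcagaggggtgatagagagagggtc
Fcer1g: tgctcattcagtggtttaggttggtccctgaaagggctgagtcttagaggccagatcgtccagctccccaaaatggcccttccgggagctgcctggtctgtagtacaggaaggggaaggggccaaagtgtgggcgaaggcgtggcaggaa
Cd53: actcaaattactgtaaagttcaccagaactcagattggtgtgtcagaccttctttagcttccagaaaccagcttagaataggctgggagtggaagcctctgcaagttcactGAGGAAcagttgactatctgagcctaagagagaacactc
Mrc1: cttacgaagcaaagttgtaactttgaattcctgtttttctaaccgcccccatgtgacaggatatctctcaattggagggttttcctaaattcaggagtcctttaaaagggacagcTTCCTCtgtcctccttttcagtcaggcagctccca

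GAGGAA occurred in 4 of the 8 marker windows, those of C1qb, Cd53, Mrc1 and Itgam, and in 14.5% of all 32851 promoter windows of the same length. TGANTCA occurred in 1 of the 8, that of Cd68, which held 2 copies, and in 4.24% of all windows. No match to either was found in the Lyz2, C1qc and Fcer1g windows. Only these exact letters were searched, so a window without a match can still hold a site of either factor. These are matches of letters, not measured binding.

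With rosiglitazone after ethanol, 7 of the 10 markers fell, none rose and all 10 differences were below 0. Over all genes, 16.3% were called lower and 14.4% higher in this comparison. After 4-hydroxytamoxifen, 6 of the 10 fell and none rose, against 12.1% of all genes lower and 11.6% higher. The calls used limma with Benjamini-Hochberg adjustment over all 22180 genes and a threshold of 0.05. The median difference of the markers was -0.54 after ethanol and -0.34 after 4-hydroxytamoxifen, against 0.01 and 0.00 for all genes. At an unadjusted p under 0.05 the counts lower were 9 and 7, with 0 higher in both.

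**Figure D1:**
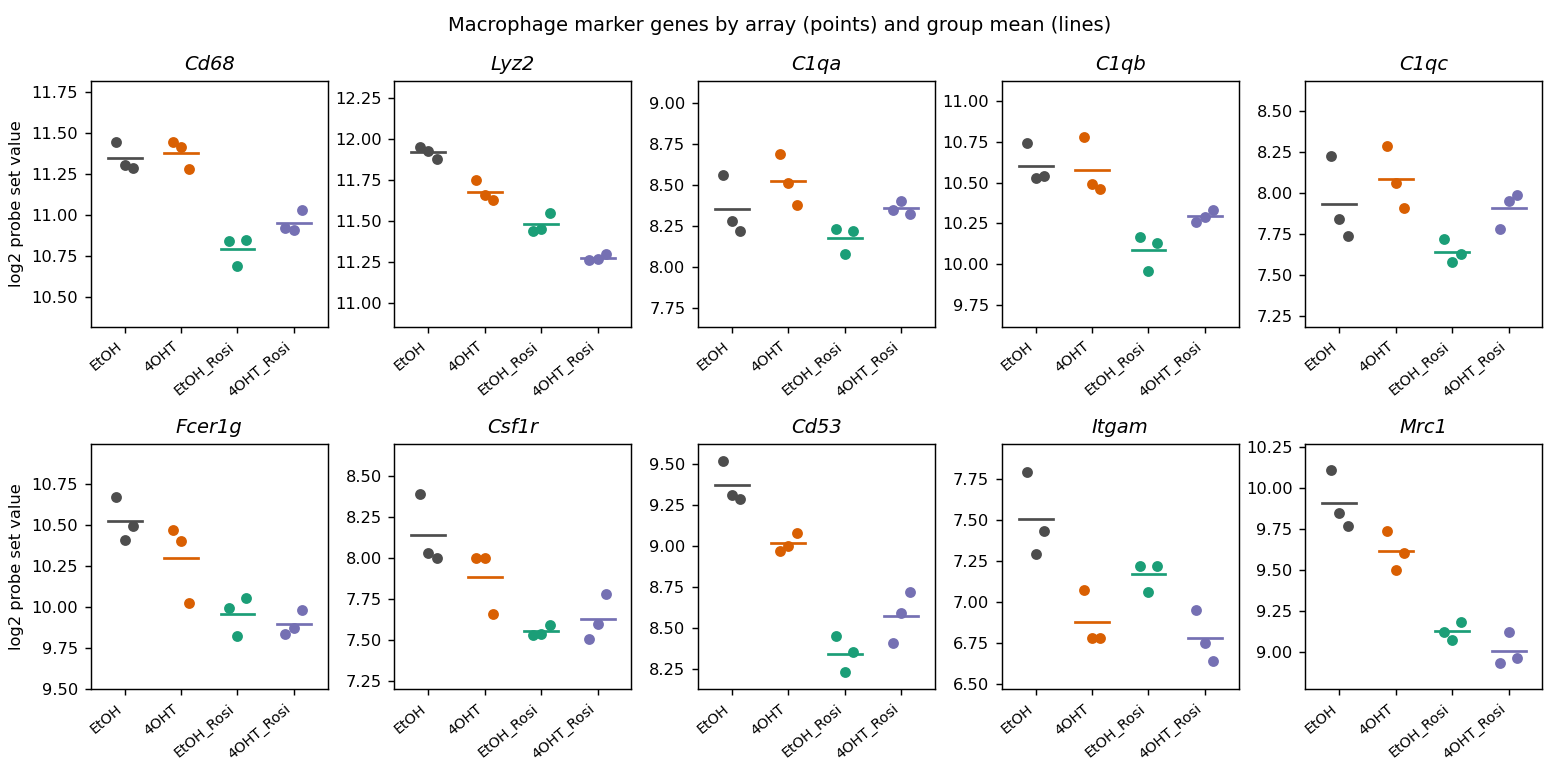
Log2 probe set values (vertical axes, a separate range for each gene, all of equal width) of the 10 macrophage markers on each of the 12 arrays, as points, with group means as lines. The points with rosiglitazone lie below those without it after both pretreatments in 6 panels, among them Mrc1, where EtOH lies between 9.77 and 10.11 and EtOH_Rosi between 9.07 and 9.18.

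Cd68, a glycoprotein of late endosomes and lysosomes, read 11.45, 11.31 and 11.29 in EtOH and 10.84, 10.69 and 10.85 in EtOH_Rosi. It read 11.45, 11.42 and 11.28 in 4OHT and 10.92, 10.91 and 11.03 in 4OHT_Rosi. Neither pair of groups overlapped. The gene was 1.47-fold lower with rosiglitazone after ethanol (log2 -0.56 ± 0.07 SE, adjusted p = 3.68e-05) and 1.35-fold lower after 4-hydroxytamoxifen (-0.43 ± 0.07, adjusted p = 0.000515). Its group means ran from 11.38 ± 0.09 (SD, n = 3) in 4OHT and 11.35 ± 0.09 in EtOH to 10.95 ± 0.07 in 4OHT_Rosi and 10.79 ± 0.09 in EtOH_Rosi. The first pair did not differ beyond its spread.

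Lyz2 encodes lysozyme M, the antibacterial enzyme of macrophages and other myeloid cells. It read 11.95, 11.93 and 11.88 in EtOH, 11.75, 11.66 and 11.63 in 4OHT, 11.44, 11.45 and 11.55 in EtOH_Rosi and 11.26, 11.27 and 11.30 in 4OHT_Rosi. No group overlapped another, which held for no other marker. With rosiglitazone the level was 1.36-fold lower after ethanol (-0.44 ± 0.06 SE, adjusted p = 3.53e-05) and 1.32-fold lower after 4-hydroxytamoxifen (-0.40 ± 0.06, adjusted p = 0.000122).

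The 3 chains of C1q are encoded by neighbouring genes, which follow one another in the RefSeq gene order. C1qb read 10.74, 10.53 and 10.54 in EtOH against 10.17, 9.96 and 10.13 in EtOH_Rosi, and 10.78, 10.49 and 10.46 in 4OHT against 10.26, 10.29 and 10.33 in 4OHT_Rosi. It was 1.43-fold lower with rosiglitazone after ethanol (-0.52 ± 0.09 SE, adjusted p = 0.000517). After 4-hydroxytamoxifen it was 1.22-fold lower (-0.28 ± 0.09, adjusted p = 0.0365). That second call was lost without 4OHT 1, 4OHT_Rosi 1, 4OHT_Rosi 2 or 4OHT_Rosi 3, with adjusted p up to 0.169 over all settings, and with median centring of all arrays (0.0557).

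C1qa and C1qc did not pass the test in either rosiglitazone comparison. C1qa read 8.56, 8.28 and 8.22 in EtOH, 8.69, 8.51 and 8.38 in 4OHT, 8.23, 8.08 and 8.22 in EtOH_Rosi and 8.35, 8.40 and 8.32 in 4OHT_Rosi. Its differences were -0.18 ± 0.09 SE (95% interval -0.38 to 0.03, adjusted p = 0.196) and -0.17 ± 0.09 (-0.37 to 0.03, adjusted p = 0.241), and the groups overlapped in both. C1qc read 8.23, 7.84 and 7.74 in EtOH, 8.29, 8.06 and 7.91 in 4OHT, 7.72, 7.58 and 7.63 in EtOH_Rosi and 7.78, 7.95 and 7.99 in 4OHT_Rosi. Its differences were -0.29 ± 0.12 (-0.55 to -0.03, adjusted p = 0.0870) and -0.18 ± 0.12 (-0.44 to 0.08, adjusted p = 0.345). C1qc was called after ethanol without EtOH 3. The 3 chains' intervals overlap, and whether the chains differ from one another was not tested.

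Csf1r, the receptor for CSF1 and IL-34, read 8.39, 8.03 and 8.0 in EtOH and 7.53, 7.54 and 7.59 in EtOH_Rosi. These groups did not overlap, and the level was 1.5-fold lower with rosiglitazone (-0.59 ± 0.11 SE, adjusted p = 0.00114). In 4OHT it read 8.0, 8.0 and 7.66, and in 4OHT_Rosi 7.51, 7.60 and 7.78, so that these groups overlapped. That difference, -0.26 ± 0.11 with a 95% interval of -0.50 to -0.01, was not called (adjusted p = 0.133), but was called without 4OHT 3, the lowest of its group, at -0.37.

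Fcer1g encodes the signalling adaptor of activating Fc receptors. It read 10.67, 10.41 and 10.49 in EtOH, 10.47, 10.40 and 10.02 in 4OHT, 9.99, 9.82 and 10.05 in EtOH_Rosi and 9.83, 9.87 and 9.98 in 4OHT_Rosi. It was 1.48-fold lower with rosiglitazone after ethanol (-0.57 ± 0.11 SE, adjusted p = 0.00108) and 1.32-fold lower after 4-hydroxytamoxifen (-0.40 ± 0.11, adjusted p = 0.0158). The second call was lost without 4OHT 1, 4OHT 2 or 4OHT_Rosi 1 (adjusted p up to 0.0790).

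Mrc1, the mannose receptor CD206 of tissue-resident and alternatively activated macrophages, read 10.11, 9.85 and 9.77 in EtOH, 9.74, 9.50 and 9.60 in 4OHT, 9.12, 9.07 and 9.18 in EtOH_Rosi and 8.93, 9.12 and 8.96 in 4OHT_Rosi. All arrays without rosiglitazone were above all arrays with it. The level was 1.73-fold lower after ethanol (-0.79 ± 0.09 SE, adjusted p = 1.54e-05) and 1.53-fold lower after 4-hydroxytamoxifen (-0.61 ± 0.09, adjusted p = 0.000217).

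Cd53, a tetraspanin of leukocyte membranes, had the largest difference of the 10 in the ethanol arm. It read 9.52, 9.31 and 9.29 in EtOH and 8.45, 8.23 and 8.35 in EtOH_Rosi, a 2.04-fold lower level (-1.03 ± 0.09 SE, adjusted p = 1.31e-06). It read 8.97, 9.0 and 9.08 in 4OHT and 8.41, 8.59 and 8.72 in 4OHT_Rosi, 1.36-fold lower (-0.44 ± 0.09, adjusted p = 0.00214). The groups overlapped in neither comparison.

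Itgam encodes CD11b, the alpha chain of complement receptor 3, which is shared by macrophages, monocytes and neutrophils. It read 7.79, 7.29 and 7.43 in EtOH and 7.22, 7.06 and 7.22 in EtOH_Rosi, and 7.07, 6.78 and 6.78 in 4OHT and 6.95, 6.75 and 6.64 in 4OHT_Rosi. The rosiglitazone differences, -0.34 ± 0.12 SE (adjusted p = 0.0548) and -0.10 ± 0.12 (adjusted p = 0.658), were not called. The first lay close to the threshold. It was called with the intensity trend and robust variances (adjusted p = 0.0464), with the filters at the 25th and 50th percentile (0.0445 and 0.0331) and without EtOH 2, 4OHT 1 or 4OHT_Rosi 1, and was -0.19 without EtOH 1. In order of level the ethanol groups came before the 4OHT groups for this gene, whereas for Cd68, Lyz2, C1qb, C1qc, Fcer1g, Csf1r, Cd53 and Mrc1 both groups without rosiglitazone came before both with it.

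**Figure D2:**
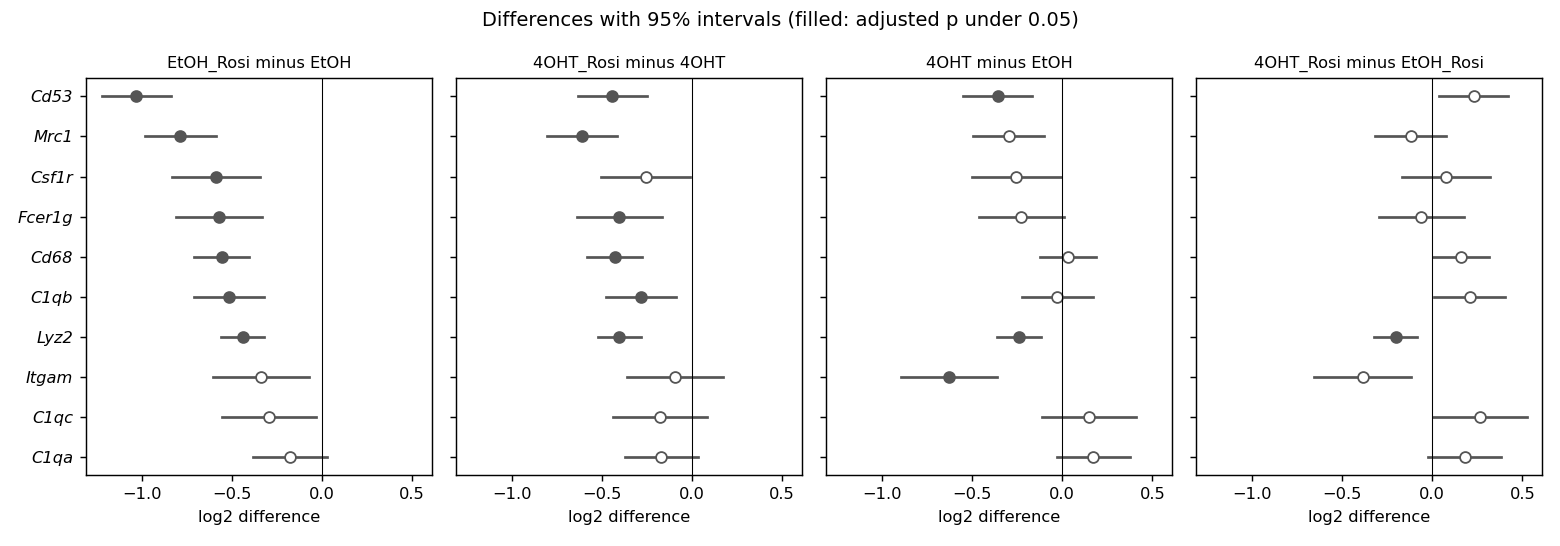
Log2 differences of the 10 markers (horizontal axes) in 4 comparisons, as points with 95% intervals from the limma fit, filled where the adjusted p was under 0.05. In the comparison of EtOH_Rosi with EtOH 7 points are filled, from -1.03 for Cd53 to -0.44 for Lyz2, and in that of 4OHT_Rosi with EtOH_Rosi 1 point is filled.

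The arrays of the 2 groups did not overlap in 9 of the 10 markers with rosiglitazone after ethanol, all lower, where 20.9% of all genes showed such a drop and 19.8% such a rise. After 4-hydroxytamoxifen it was 6 of 10, all lower, against 18% of all genes with a drop and 18.1% with a rise. Leaving out single arrays gave 7 or 8 markers lower after ethanol. After 4-hydroxytamoxifen it gave 4 to 7, with 4 without 4OHT 1 or without 4OHT_Rosi 1. Cd68, Lyz2, Cd53 and Mrc1 were called lower in both comparisons under every setting run, and C1qb, Fcer1g and Csf1r in the ethanol arm.

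After 4-hydroxytamoxifen without rosiglitazone, Itgam, Cd53 and Lyz2 fell, and no marker rose. Over all genes, 1.79% were called lower and 2.13% higher. The median of the 10 differences was -0.23 against 0.00 for all genes, and at an unadjusted p under 0.05 there were 5 lower and 0 higher. Itgam was 1.54-fold lower (-0.63 ± 0.12 SE, adjusted p = 0.0111), Cd53 1.28-fold (-0.36 ± 0.09, adjusted p = 0.0410) and Lyz2 1.18-fold (-0.24 ± 0.06, adjusted p = 0.0294). The groups of these 3 genes and of Mrc1 (-0.30 ± 0.09, adjusted p = 0.0999) did not overlap, 4 of 10, where 11.7% of all genes showed such a drop and 11.2% such a rise.

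The 3 calls rested on few arrays. Without 4OHT 2 or 4OHT 3 none was left, with Itgam at adjusted p = 0.0596 and 0.0578. Without any 1 of the 3 EtOH arrays Itgam alone was called, at -0.48 without EtOH 1. Cd53 was also lost without 4OHT 1 or 4OHT_Rosi 2. The remaining differences were 0.03 ± 0.07 SE for Cd68, -0.03 ± 0.09 for C1qb, 0.17 ± 0.09 for C1qa, 0.15 ± 0.12 for C1qc, -0.23 ± 0.11 for Fcer1g and -0.25 ± 0.11 for Csf1r, with adjusted p from 0.293 to 0.938. The 95% interval for Cd68 ran from -0.12 to 0.19.

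With rosiglitazone, 1 marker was lower after 4-hydroxytamoxifen and none higher, where 3.38% of all genes were called lower and 4.65% higher. Lyz2 was 1.15-fold lower (-0.20 ± 0.06 SE, adjusted p = 0.0416), and this call held in 8 of 21 settings. It was lost without EtOH 1, EtOH 2, 4OHT 2 or any of the 6 rosiglitazone arrays. At an unadjusted p under 0.05, 4 markers were higher and 2 lower. The arrays did not overlap in 6 markers, Cd68, C1qa, C1qb and C1qc higher and Lyz2 and Itgam lower, where 11.5% and 10.3% of all genes did so in these directions. The C1q chains differed by 0.18 ± 0.09 for C1qa, 0.21 ± 0.09 for C1qb and 0.26 ± 0.12 for C1qc, with adjusted p of 0.312, 0.211 and 0.235. Itgam differed by -0.39 ± 0.12 (adjusted p = 0.0774), and was called without EtOH 1 and with the filter at the 50th percentile.

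The difference between the 4-hydroxytamoxifen effects with and without rosiglitazone was called for 1 marker, Cd53, at 0.59 ± 0.13 SE (adjusted p = 0.0455). Over all genes, 0.523% were called in this direction and 0.482% in the other. Cd53 changed by -0.36 without rosiglitazone and by 0.23 with it (the latter not called, adjusted p = 0.150). The call held without EtOH_Rosi 1 or 4OHT_Rosi 1 and was lost without any of the other 10 arrays, with adjusted p up to 0.127. The remaining 9 estimates were also above 0, from 0.01 for C1qa to 0.33 for Csf1r (adjusted p = 0.386). This sign was not stable for C1qa and C1qc. C1qa was below 0 in 8 of the 20 settings, down to -0.10 without EtOH 1 and -0.07 without 4OHT 3, and C1qc was at -0.03 without EtOH 1. The 2 rosiglitazone comparisons and the 2 of 4-hydroxytamoxifen share their groups with this one, so they do not bear on each other as separate evidence.

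Within groups the markers moved together from array to array. EtOH 1 was the highest of the EtOH arrays for 10 of 10 markers, whereas it was the highest for 36.8% of all genes, and the mean of the 10 was 9.74 there against 9.48 and 9.46 in EtOH 2 and EtOH 3. The mean was 9.52, 9.38 and 9.28 in 4OHT, 9.07, 8.95 and 9.08 in EtOH_Rosi and 9.02, 9.08 and 9.10 in 4OHT_Rosi. Group means of this average were 9.56 ± 0.16 (SD, n = 3), 9.39 ± 0.12, 9.03 ± 0.07 and 9.07 ± 0.04, the SDs being larger without rosiglitazone than with it, a difference that was not tested. EtOH 1 raises the EtOH mean in every comparison with that group, and without it 7 markers were called lower with rosiglitazone.

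**Figure D3:**
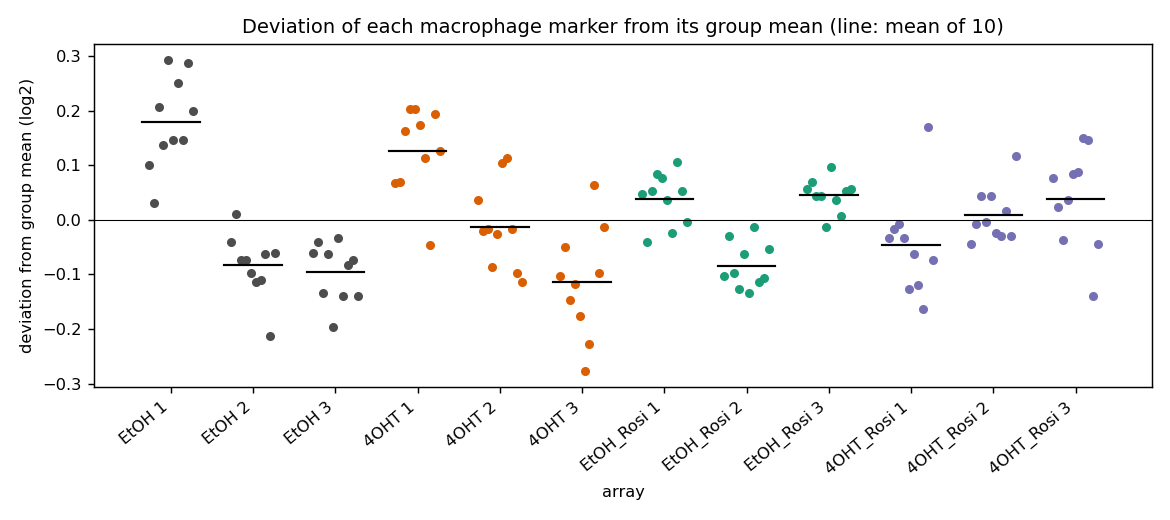
Deviation of each of the 10 markers from its own group mean (vertical axis, log2) on each of the 12 arrays, with the mean of the 10 as a line. EtOH 1 has the highest line, 0.18 above its group mean, and 4OHT 3 the lowest, -0.11.

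After the group means were removed, the mean correlation over the 45 pairs of markers was 0.64, from 0.10 to 0.92, and all 45 were above 0. The mean over all genes was 0.00. Without EtOH 1 the mean was 0.48, from -0.44 to 0.90, with 42 pairs above 0. The points are 12 arrays, and what the arrays of a group share in culture or handling is not stated in the labels. Over the 12 arrays with the group means left in, the mean was 0.69. Lyz2 and Mrc1 had the highest value, 0.96, and C1qa and Itgam the lowest, -0.01. C1qa and Itgam nevertheless correlated at 0.82 within groups.

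Outside the 10, the genes most like the mean of the markers over the 12 arrays were Tinf2 (r = 0.98), Adam8 (0.97), Golph3l (0.96), Foxj2 (0.96) and Tyrobp (0.96). Tyrobp encodes DAP12, a signalling adaptor of myeloid receptors, and Tinf2 a telomere-binding protein. For single markers, Siglec1, the sialoadhesin of macrophages, was closest to C1qa (0.97) and C1qc (0.93), Tyrobp to C1qb (0.96), Selplg to Csf1r (0.95), Marco to Itgam (0.94), Pacc1 to Fcer1g (0.96), Sp3 to Cd53 (0.99), Elovl6 to Mrc1 (0.98), Mbtps1 to Lyz2 (0.99) and Tmed10 to Cd68 (0.98). Within groups, Siglec1 and C1qa correlated at 0.98 and Tmed10 and Cd68 at 0.89. The 12 points share the differences between groups, and these values are a description.

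A wider list of 48 other macrophage and myeloid genes was lower with rosiglitazone after ethanol in 34 and higher in 1, with a median of -0.48. After 4-hydroxytamoxifen 20 were lower and 4 higher, with a median of -0.21. Over all genes, 16.3% were lower and 14.4% higher after ethanol, and 12.1% and 11.6% after 4-hydroxytamoxifen. Without 4OHT 1 that 20 became 10, without 4OHT_Rosi 1 it became 13 and without 4OHT_Rosi 2 it became 11. The 4 higher became 1 without 4OHT 3 or 4OHT_Rosi 1. Among the genes with the smallest p, Cyba, a subunit of the phagocyte oxidase, fell by 0.89 on the log2 scale after ethanol (adjusted p = 4.56e-07), and Mmp12, the macrophage elastase, and Clec4n, the lectin dectin-2, each by 1.40 (adjusted p = 6.77e-07 and 7.67e-07). The pan-macrophage marker Adgre1 was at -0.64 (adjusted p = 0.000647), the leukocyte marker Ptprc (CD45) at -0.48 (0.00328) and the myeloid regulator Spi1 (PU.1) at -0.49 (0.000358). Other genes of the list did not fall. Lgals3 averaged 9.69 in EtOH and 10.01 in EtOH_Rosi, and Cx3cr1 7.17 and 7.26. Clec7a averaged 6.19 in 4OHT, under the gauge, and 7.11 in 4OHT_Rosi. Adgre1, Ptprc, Spi1, Lgals3, Cx3cr1 and Clec7a were chosen after their values were seen. Differences over the list after ethanol ran from -1.40 to 0.32. Of the 48 genes, 10 lay at or under the gauge, among them Aif1, Cd86, Ccr2 and Timd4.

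The wider list did not move one way after 4-hydroxytamoxifen. Its medians were -0.11 without rosiglitazone and 0.10 with it. Over all genes, 1.79% were called lower and 2.13% higher without rosiglitazone. Without it 6 of the 48 were lower, among them Mmp12 (-1.12 ± 0.11 SE, adjusted p = 8.68e-05), Clec4n (-0.66 ± 0.11, adjusted p = 0.00470) and Marco, a scavenger receptor chosen after its value was seen (-1.02 ± 0.10, adjusted p = 7.62e-05), and 3 were higher. The 3 became 0 without EtOH 2, EtOH 3 or any of the 3 4OHT arrays, and the 6 lower ranged down to 4, without 4OHT 1. With rosiglitazone 10 were higher and 1 lower, where 4.65% of all genes were higher and 3.38% lower. The 1 lower does not stand apart from that share. The 10 became 6 without EtOH_Rosi 2, and the 1 became 2 without EtOH 1, 4OHT 1 or 4OHT_Rosi 1. The interferon-stimulated genes moved with 4-hydroxytamoxifen: 10 of 11 measured rose without rosiglitazone and 11 of 11 with it, and their mean level lay between 7.71 and 8.24 in EtOH, 9.35 and 9.43 in 4OHT, 7.42 and 7.83 in EtOH_Rosi and 9.21 and 9.49 in 4OHT_Rosi. Irf7, a regulator of that response, rose by 2.31 ± 0.14 SE without rosiglitazone (adjusted p = 4.01e-06). The part of this response in the marker differences was not tested.

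Partners of the markers were read by role, with the markers themselves left out. With rosiglitazone after ethanol, 16.3% of all genes were lower and 14.4% higher. After 4-hydroxytamoxifen these shares were 12.1% and 11.6%, and the counts of each list are to be read beside them. Among Fc receptors and their adaptors, 6 of 8 were lower with rosiglitazone after ethanol and none higher. Fcgr2b, the inhibitory Fc receptor, was at -0.63 ± 0.09 SE (adjusted p = 0.000151), and Tyrobp at -0.58 ± 0.08 (adjusted p = 0.000107). After 4-hydroxytamoxifen 3 of the 8 were lower, and this became 1 without 4OHT 1 and 0 without 4OHT 2, 4OHT_Rosi 1 or 4OHT_Rosi 2. Fcgr1, the high-affinity receptor, rose after 4-hydroxytamoxifen with rosiglitazone, by 0.96 ± 0.12 (adjusted p = 0.000315), and its adaptor Fcer1g was at -0.06 ± 0.11 in the same comparison (adjusted p = 0.822). Their difference was not tested.

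Of the ligands of Csf1r, Csf1 read 11.51, 11.48 and 11.48 in EtOH, 11.45, 11.57 and 11.56 in 4OHT, 10.65, 10.61 and 10.43 in EtOH_Rosi and 10.76 to 11.13 in 4OHT_Rosi. It fell with rosiglitazone by 0.93 on the log2 scale after ethanol (SE 0.09, adjusted p = 2.92e-06) and by 0.56 after 4-hydroxytamoxifen (adjusted p = 0.000308). Il34, the second ligand, fell by 0.94 and 0.93 (SE 0.06, adjusted p = 9.93e-08 and 1.27e-07). Both were thus lower in the cultures in which Csf1r read lowest. Csf1 was 0.40 ± 0.09 higher after 4-hydroxytamoxifen with rosiglitazone (adjusted p = 0.0123), a call lost without EtOH_Rosi 3 (adjusted p = 0.0556), while Csf1r was at 0.08 ± 0.11 (adjusted p = 0.774). Over the 8 growth factors and receptors of this group, 3 were lower with rosiglitazone after ethanol, 2 after 4-hydroxytamoxifen, and 5 of the 8 lay at or under the gauge.

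Complement genes beyond C1q fell in 12 of 15 and rose in 2 with rosiglitazone after ethanol, with a median of -0.63. After 4-hydroxytamoxifen 11 were lower and 2 higher. After ethanol, Masp1, a protease of the lectin pathway, was at -1.02 ± 0.11 SE (adjusted p = 8.48e-06). C1s1, a protease of the C1 complex, was at -0.94 ± 0.12 (adjusted p = 3.60e-05). C2 and Cfb, which build the convertases, were both at -0.81 ± 0.09 (adjusted p = 9.37e-06 and 7.99e-06). Masp1 and C1s1 averaged 6.02 and 6.24 in EtOH_Rosi, under the gauge of 6.30, so their falls can be understated. Many of these genes are also made by fibroblasts and fat cells, so the list is not specific to macrophages. Of 24 lysosomal genes, many of them active in most cell types, 15 were lower and 3 higher after ethanol. Ctsk, a collagen-degrading cathepsin, was at -1.10 ± 0.11 (adjusted p = 4.68e-06) and Hexa at -0.65 ± 0.05 (adjusted p = 1.03e-06).

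Among the leukocyte integrins, Itgb2, the beta chain that pairs with the product of Itgam, was -0.61 ± 0.10 SE with rosiglitazone after ethanol (adjusted p = 0.000193) and -0.49 ± 0.10 after 4-hydroxytamoxifen without it (adjusted p = 0.00994), the latter lost without 4OHT 2 (adjusted p = 0.0518). Itgad, which encodes CD11d, another alpha chain that pairs with Itgb2, went the other way. It read 6.28, 6.49 and 6.59 in EtOH, 6.14, 6.26 and 6.33 in 4OHT, 10.56, 10.75 and 10.52 in EtOH_Rosi and 9.04, 8.86 and 8.66 in 4OHT_Rosi. With rosiglitazone it rose by 4.16 ± 0.10 after ethanol (adjusted p = 5.56e-11) and by 2.61 ± 0.10 after 4-hydroxytamoxifen (adjusted p = 3.29e-09). The mean without rosiglitazone was 6.45 in EtOH and 6.24 in 4OHT, close to and under the gauge of 6.30, so both measured rises are limited by background and can understate the change. Of the 8 integrins, 4 were lower and 1 higher after ethanol, and the 1 became 2 without EtOH 3.

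Chemokines and their receptors were lower with rosiglitazone after ethanol in 11 of 15 and higher in none, with a median of -0.65. The list was made for the attraction of monocytes but also holds Cxcl2 and Cxcl5, which draw neutrophils. Ccl2, the main attractant of monocytes, read 1.65 lower on the log2 scale (-1.65 ± 0.18 SE, adjusted p = 8.07e-06) and Cxcl12 1.34 lower (-1.34 ± 0.10, adjusted p = 4.62e-07). After 4-hydroxytamoxifen 5 were lower and 1 higher, the 5 became 3 without 4OHT 1, 4OHT 2 or 4OHT_Rosi 2, and the 1 became 0 without 4OHT 2 or 4OHT_Rosi 2. Of 15 genes of alternative activation, 5 were lower and 1 higher after ethanol, with 9 of the 15 at or under the gauge, and of 16 of classical activation 7 were lower and 1 higher. The 1 higher became 0 in each list without EtOH 1, and also without EtOH 3 in the first and without EtOH 2, EtOH_Rosi 1 or EtOH_Rosi 2 in the second. Stab1, a scavenger receptor of resident macrophages, was at -1.04 ± 0.11 (adjusted p = 6.43e-06), and Cd163, the haemoglobin scavenger receptor, at -0.53 ± 0.09 (adjusted p = 0.000502).

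Markers of other cell types were read beside the 10. T cell markers were at or under the gauge in 8 of 9, with Thy1, which fibroblasts also carry, as the exception. B cell markers were so in 7 of 7, NK cell markers in 5 of 6, eosinophil markers in 4 of 4, neutrophil markers in 9 of 12, among them Ly6g, S100a8, S100a9 and Mpo, mast cell markers in 6 of 8 and dendritic cell markers in 5 of 8. The mean level of the neutrophil list was 5.54 in the EtOH arrays and lay between 5.50 and 5.54 in 4OHT, 5.42 and 5.44 in EtOH_Rosi and 5.36 and 5.49 in 4OHT_Rosi. Of its 12 genes 3 were lower with rosiglitazone after ethanol and 2 after 4-hydroxytamoxifen, against 16.3% and 12.1% of all genes. Some of these lists held rises with rosiglitazone after ethanol. Over all genes, 14.4% were higher in this comparison and 11.6% after 4-hydroxytamoxifen, so 1 gene in a list this small does not set it apart. Of 8 mast cell genes 1 was higher and 2 lower after ethanol, with a largest difference of 2.31. After 4-hydroxytamoxifen 1 was higher, with a largest difference of 1.21, and 1 lower. After ethanol 1 of 6 NK cell genes, Prf1, was higher, at 0.54. So was 1 of 4 eosinophil genes, Il5ra, a call lost without EtOH 1, EtOH 2 or EtOH_Rosi 1. Lists near the gauge leave little room to see a fall.

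**Figure D4:**
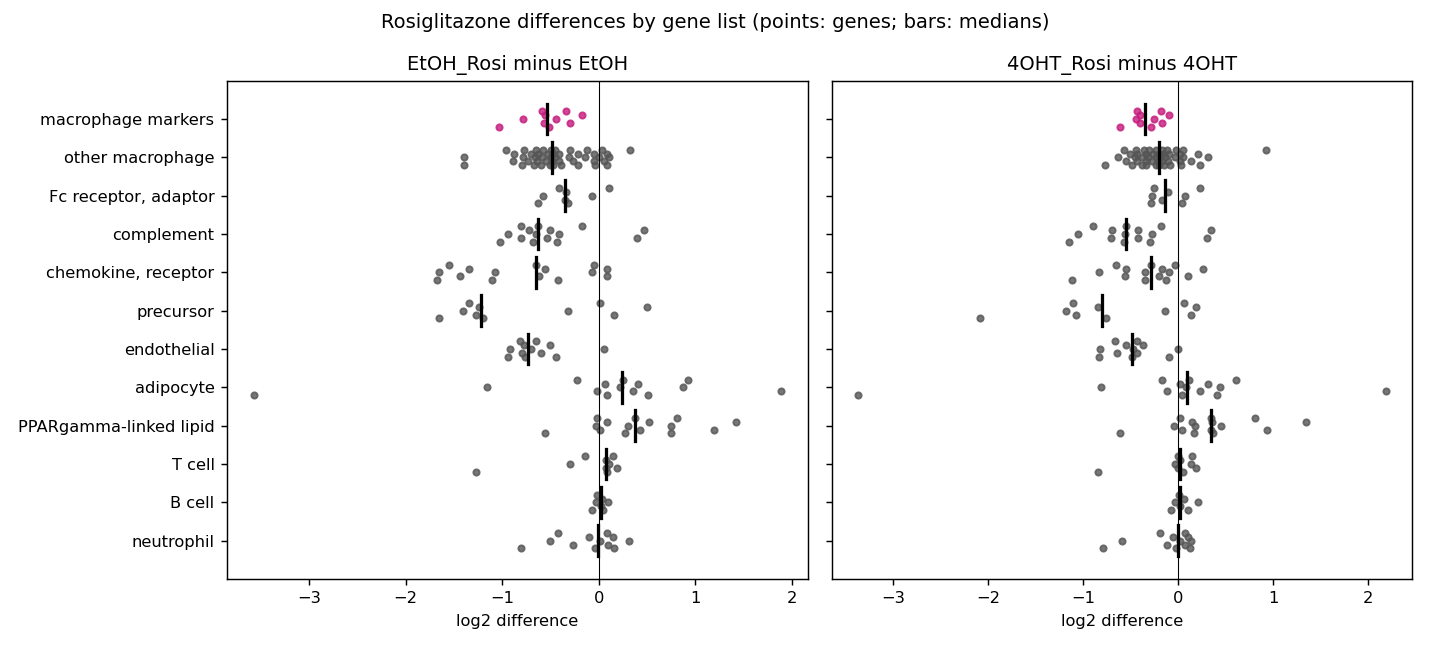
Log2 differences with rosiglitazone (horizontal axes) of the genes of 12 lists, after ethanol on the left and after 4-hydroxytamoxifen on the right, with 1 point per gene and a bar at each list's median. The bar of the 10 macrophage markers lies at -0.54 and -0.34, between those of the wider macrophage list and the endothelial and precursor lists on the left.

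Other non-adipocyte lists were lower with rosiglitazone as well. Endothelial markers fell in 11 of 12 after ethanol (median -0.73) and in 10 of 12 after 4-hydroxytamoxifen (-0.48), and all 12 lay above the gauge. Their mean level was between 8.91 and 9.04 in EtOH, 8.77 and 8.93 in 4OHT, 8.25 and 8.37 in EtOH_Rosi and 8.15 and 8.47 in 4OHT_Rosi. Precursor markers fell in 6 of 10 in both, with medians of -1.22 and -0.80. After ethanol 1 rose, Ebf2 at 0.50 (named after its value was seen), and this became 2 without EtOH 1. After 4-hydroxytamoxifen none rose, or 1 without 4OHT_Rosi 3. Of the 10, 9 lay above the gauge. Their mean level was between 9.22 and 9.30 in EtOH, 9.28 and 9.32 in 4OHT, 8.42 and 8.58 in EtOH_Rosi and 8.48 and 8.83 in 4OHT_Rosi. Pdgfra, a receptor of precursors and fibroblasts, was at -1.24 ± 0.09 SE after ethanol (adjusted p = 3.60e-07).

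Of 14 adipocyte genes, all above the gauge, 8 were higher and 3 lower after ethanol, with a median of 0.23. Differences in this list ran from -3.57 to 1.89, so it did not move one way. Adipoq, the fat cell hormone adiponectin, rose by 0.41 ± 0.06 SE (adjusted p = 0.000115). Pparg, the gene of PPARgamma, was at 0.06 ± 0.05 and was not called (adjusted p = 0.473). Of 15 lipid genes linked to PPARgamma in fat cells and macrophages alike, 10 were higher and 1 lower, and Angptl4 was at 1.42 ± 0.07 (adjusted p = 2.29e-08). The values may be relative to the total signal of each array, as their normalization is not given. The part of the cultures' cell composition in the marker differences was not tested.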

How the data were processed

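The authors deposited log2 probe set values, given to 2 decimals, for 41345 probe sets on 12 arrays. The submitters' processing notes name Affymetrix Expression Console. Version, probe summary and normalization are among the items not given in the sources used here. Of the probe sets 23521 map to 1 gene symbol, 1814 to several and 16010 to none. Names of 23328 were updated by Entrez ID from a RefSeq table. The 1082 genes with several probe sets were represented by the brightest on average, giving 22180 genes, and dim genes were kept. With arrays, their number limits the precision, 3 per group.

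Group means were modelled over all 12 arrays in limma 3.58.1 (lmFit and eBayes, R 4.3.3). The fit had 8 residual degrees of freedom, and the prior added 5.07. It gave 5 contrasts: rosiglitazone against none after each pretreatment, 4-hydroxytamoxifen against ethanol without and with rosiglitazone, and the difference between the last pair. P-values were adjusted by Benjamini-Hochberg over all genes within a contrast, and intervals are at 95%. The steps were tested on simulated data. Plots were made in Python 3.11.15 using matplotlib 3.10.9.

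The members and the 21 companion lists were chosen with earlier results of these data known. The named genes were the 10 markers, up to 4 called genes per companion list with the smallest p in any of the 4 comparisons of groups, and the markers under the gauge, with Prdm16, Irf7, Adipoq and Pparg for reference. Genes of similar profile were the 5 with the highest Pearson r to the mean of the markers' centred values and the 2 with the highest r to each marker. Genes whose highest group mean was under the median level of all genes were left out, as were predicted genes, small RNAs and receptor genes of smell. Other names were chosen after their values were seen.

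Over all genes, same-numbered arrays of different groups did not deviate together (18 pairs, r from -0.24 to 0.08, none over 0.1), so the numbers were not used as pairs. Single markers were not checked in this way. Alternative settings were the replicate number as a block, fitting the 2 compared groups alone, robust variances with an intensity trend, estimated array weights, centring each array on its median, quantile normalization, dropping genes under the 25th or the 50th percentile of mean level, averaging a gene's probe sets, and leaving out each array in turn.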

Additional observations from a re-analysis of the deposited data

Results flagged for a closer look

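A difference between the 4-hydroxytamoxifen effects with and without rosiglitazone was called, in limma's test of that difference, for 14 of the genes followed. Over all 22180 genes, 0.523% were called above 0 and 0.482% below 0. The lists were chosen with earlier results of these data known, so the 14 are a description. Among the 10 macrophage markers it was Cd53, at 0.59 (log2). In the wider macrophage list of 48 genes it was Mmp12 at 1.02, Clec4n at 0.85, Clec7a at 0.82, Vav1 at 0.61, Lilrb4a at 0.56 and Lcp1 at 0.46. The 4-hydroxytamoxifen differences without and with rosiglitazone were -1.12 and -0.10 for Mmp12, -0.66 and 0.19 for Clec4n, -0.44 and 0.38 for Clec7a, -0.35 and 0.21 for Lilrb4a, -0.44 and 0.03 for Lcp1 and -0.36 and 0.23 for Cd53. The chemokines were Ccl6 at 0.77, Ccl3 at 0.74 and Ccl9 at 0.53, and the endothelial receptor Kdr was at 0.61. Values below 0 were those of Itgad at -1.55, which rests on levels close to or under the background gauge without rosiglitazone, of the mast cell tryptase Tpsab1 at -1.09 and of the cholesterol exporter Abcg1 at -0.57.

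Leaving out 1 array ended the call for Kdr in 11 of 12 cases, for Cd53 and Vav1 in 10, for Ccl3 in 9, for Ccl9 in 8, for Clec4n in 7 and for Lcp1, Lilrb4a and Tpsab1 in 5. For Mmp12, Clec7a, Itgad, Ccl6 and Abcg1 it ended none.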

How the results depend on the processing

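Of 50 results for single markers (10 genes in 5 contrasts), 18 were called, and 11 of the 18 were called under all settings run. None of the 18 reversed. Counted once per result and setting, uncalled values took the other sign in 15 cases, so the same result can count several times. The replicate block rests on numbers that did not pair the arrays over all genes. This block and median centring each left 1 marker lower after 4-hydroxytamoxifen without rosiglitazone in place of 3. Each also left 0 in place of 1 for the difference between the 4-hydroxytamoxifen effects. With rosiglitazone, the 1 marker lower after 4-hydroxytamoxifen became 0 with only the 2 groups compared, with array weights or with median centring, and 2 with the filter at the 50th percentile, which tests fewer genes. The cause of the other changes was not tested. The replicate block changed no other count by over 1.5 times, but in the comparison of 4OHT_Rosi with EtOH_Rosi it called Itgam (adjusted p = 0.0174) in place of Lyz2 (0.0828), and in that of EtOH_Rosi with EtOH it added Itgam (0.00826).

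Leaving out single arrays gave 0 to 3 markers lower after 4-hydroxytamoxifen without rosiglitazone, 0 to 1 with it, 7 to 8 lower with rosiglitazone after ethanol, 4 to 7 after 4-hydroxytamoxifen, and 0 to 1 for the difference between effects. No marker was called higher in any comparison of 2 groups when an array was left out. A group that lost an array had 2, with its variance shared with the other groups. Leave-one-out counts for the companion lists and genes were an alternative chosen after seeing the data. Signal near background limits Itgam most, with its lowest array 0.34 above the gauge.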
